A study of Mus musculus with 4 samples.

Results

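The nuclear genes for the subunits of complex III, complex IV and the ATP synthase, together with cytochrome c, were followed in kidney and heart. They were taken as the protein-coding genes whose mouse symbol starts with Uqcr, with Cox and a digit from 4 to 8 and a letter, or with Atp5, and the genes Cyc1 and Cycs, which gave 46 of the 55401 genes in the files. Complex III had 9 of them, complex IV 18, the ATP synthase 18, and cytochrome c was 1 gene. At least 1 read was counted for 44. Cox8c and a second Atp5o entry that overlaps Donson and the main Atp5o gene were at 0 in every library, and Cox7b2 had 1 count in 1 heart library.

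The study compared C57BL/6 mice that underwent cecal ligation puncture (CLP), an operation that lets gut bacteria leak into the abdomen and causes sepsis, with mice given melatonin (MLT) before the same operation (CLP + MLT). Every group compared here carried CLP, and sham mice were not used here. For the kidneys the mice were male and aged 8 weeks, melatonin was given at 25 μg/ml in the drinking water over 14 days, and tissue was taken 24 h after CLP. For the hearts the labels name the strain, the tissue and the treatment, and the sources used here give no age, sex, dose or time. Both melatonin samples are titled CLP+MLT4, while the treatment label reads CLP+MLT4 for the kidney and CLP+MLT for the heart, and the digit is not explained. Each of the 4 groups (CLP kidney, CLP + MLT kidney, CLP heart and CLP + MLT heart) was 1 library of poly(A) RNA, whether from 1 mouse or a pool is not stated, and the drink of the CLP mice without melatonin is not given. No difference between CLP + MLT and CLP can therefore be set against the spread between mice, and an effect of melatonin cannot be told apart from a difference between the animals.

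These proteins form the last steps of oxidative phosphorylation in the inner mitochondrial membrane. Complex III passes electrons from ubiquinol to cytochrome c, the small carrier Cycs brings them to complex IV, which reduces oxygen to water, and the ATP synthase makes ATP with the proton gradient that complexes I, III and IV build. A few core subunits (cytochrome b, the 3 large subunits of complex IV, and subunits a and 8 of the ATP synthase) are encoded by the mitochondrial genome, and all others come from nuclear genes such as those described here. Several complex IV subunits exist as tissue isoforms: Cox6a2, Cox7a1 and Cox8b are the forms of heart and skeletal muscle, and Cox6a1, Cox7a2 and Cox8a are the widespread forms. Heart and proximal tubule are both rich in mitochondria.

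Promoters of 34 of the 45 member symbols were found in the RefSeq promoter table (GRCm38.p6, the same build as mm10). The windows shown here are the 250 bases before the start of transcription, written on the strand of the gene, with motif matches in capitals. They are shown because most members stood low together in the CLP + MLT heart, with Cox7a1, Cox7a2, Cox8b and Uqcr11 among them, while Cox6a1 and Cox8a were not called there. The windows are those of Cox6a1 (chr5:115348959-115349208, minus strand), Cox7a1 (chr7:30183921-30184170, plus strand), Cox7a2 (chr9:79759854-79760103, minus strand), Cox8a (chr19:7217617-7217866, minus strand), Cox8b (chr7:140900447-140900696, minus strand) and Uqcr11 (chr10:80406822-80407071, minus strand).
Cox6a1: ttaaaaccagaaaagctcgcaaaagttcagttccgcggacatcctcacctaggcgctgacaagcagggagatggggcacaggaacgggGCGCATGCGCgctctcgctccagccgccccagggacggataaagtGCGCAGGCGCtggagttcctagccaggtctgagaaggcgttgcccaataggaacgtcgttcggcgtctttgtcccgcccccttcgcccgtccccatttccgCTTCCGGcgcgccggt
Cox7a1: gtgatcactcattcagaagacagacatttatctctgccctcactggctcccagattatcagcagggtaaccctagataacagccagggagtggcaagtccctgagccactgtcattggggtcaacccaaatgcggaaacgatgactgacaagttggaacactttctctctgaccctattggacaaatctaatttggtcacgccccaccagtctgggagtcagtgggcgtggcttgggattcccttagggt
Cox7a2: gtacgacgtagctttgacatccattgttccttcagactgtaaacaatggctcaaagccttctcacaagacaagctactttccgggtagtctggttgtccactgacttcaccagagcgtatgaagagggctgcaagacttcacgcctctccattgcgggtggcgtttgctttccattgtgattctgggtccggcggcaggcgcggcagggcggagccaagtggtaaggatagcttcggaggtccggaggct
Cox8a: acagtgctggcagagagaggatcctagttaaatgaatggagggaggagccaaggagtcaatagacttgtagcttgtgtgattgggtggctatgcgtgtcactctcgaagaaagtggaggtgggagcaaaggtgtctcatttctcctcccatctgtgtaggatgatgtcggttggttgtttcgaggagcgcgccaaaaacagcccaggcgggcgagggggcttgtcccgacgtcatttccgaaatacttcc
Cox8b: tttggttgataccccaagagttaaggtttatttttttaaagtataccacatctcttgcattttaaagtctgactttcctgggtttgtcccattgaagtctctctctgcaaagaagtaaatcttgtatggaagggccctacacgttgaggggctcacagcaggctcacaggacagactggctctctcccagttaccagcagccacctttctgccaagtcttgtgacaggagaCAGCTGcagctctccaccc
Uqcr11: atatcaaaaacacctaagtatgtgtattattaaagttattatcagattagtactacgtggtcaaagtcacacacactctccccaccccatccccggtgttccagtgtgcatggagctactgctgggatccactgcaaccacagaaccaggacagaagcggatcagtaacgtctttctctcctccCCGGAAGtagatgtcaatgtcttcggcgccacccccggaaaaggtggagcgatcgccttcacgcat
The Cox6a1 window held the NRF1 letters from positions -162 and -117 and the ETS letters from position -16, counted from the start of transcription. Uqcr11 held the ETS letters from position -66, and Cox8b the E-box letters from position -19. No searched letters were found in the printed windows of Cox7a1, Cox7a2 and Cox8a. The longer table window of Cox8a, which also holds the first bases after the start, did hold the ETS letters.

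The letters of 6 motifs were searched on both strands in the whole table windows, which also hold the first bases after the start. The NRF1 letters stood in 21.6% of the 37 member promoters and in 4.60% of all 32851 promoters. The ETS and GABPA letters CCGGAAG stood in 27.0% and 8.86%, the ERR letters AAGGTCA in 10.8% and 4.72%, and the YY1 letters AAGATGGC in 8.11% and 2.75%. The E-box letters CAGCTG stood in 5.41% of member promoters and 16.3% of all, and the MEF2 letters in 2.70% and 3.69%. MEF2 was searched as a palindrome of 10 letters with open positions in the middle. NRF1 was searched as a pattern of 10 letters with an open position, which is not a palindrome and reads differently on each strand. The other motifs were searched as the letters given. These shares describe letters only, and some genes have more than 1 promoter in the table.

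Reads counted on genes numbered 15883057 to 22927905 per library. Mitochondrially encoded genes held 14.8% of those reads in the CLP kidney, 24.2% in the CLP + MLT kidney, 31.6% in the CLP heart and 36.0% in the CLP + MLT heart. The members took 1.31%, 1.36%, 1.60% and 0.723% in the same order. The strand setting of the counting is not given, and 14 members share exon bases with another gene. The libraries matched their tissue labels: 17 of 18 cardiomyocyte markers were higher in heart and 14 of 15 proximal tubule markers in kidney (edgeR's quasi-likelihood test, Benjamini-Hochberg adjusted p of at most 0.05), while Myl7, a gene of atrial muscle, had 54 and 30 counts in the kidneys and 1 and 0 in the hearts and was called higher in kidney (log2 -5.50, adjusted p = 0.00151, edgeR).

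In heart, the subunit genes were lower in the CLP + MLT library almost without exception. Relative to the CLP library, the median log2 ratio of the members was -1.15 (-1.23 to -1.07), a 2.22-fold lower level, against 0.0023 for all genes. Of the 43 members with a mean of at least 10 counts, 40 were lower and 3 higher. A member was called when it differed by at least 1.5-fold: 33 were called lower and 0 higher, where 12.6% of all 15871 genes were called lower and 10.9% higher. For 30 of the 33 the whole 95% counting interval lay beyond 1.5-fold. In bulk tissue, fewer cells of a type and less RNA per cell cannot be told apart.

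In kidney, the members leaned the other way and by less. Their median log2 ratio was 0.32 (0.25 to 0.37), against 0.0029 for all genes, with 33 of 42 members higher and 9 lower. The genes called higher were Uqcr11, Atp5s, Atp5e, Atp5k and Cox6c, 5 of 42, where 11% of all 16932 genes were called higher. The 2 called lower were Cox4i2 and Cox6a2, where 11.6% of all genes were called lower. Both rest on few reads, and Cox6a2, with 34 and 10 counts, had a log2 ratio of -1.06 (-2.28 to -0.04). The share of members called higher in kidney (11.9%) was thus near the background, and the share called lower (4.76%) was below it. It was the shift of many members by less than 1.5-fold that set them apart from the median of all genes. Scaled by library size only, the kidney median was 0.13 and that of all genes -0.19, with 25 of 42 members above 0 and Uqcrc1, Uqcrc2, Cyc1, Uqcrfs1, Cox7a2l, Cox8a, Atp5g2 and Atp5g3 turning to between -0.18 and -0.02. With that scaling 1149 of all genes were called higher and 3172 lower, instead of 1863 and 1971.

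**Figure D1:**
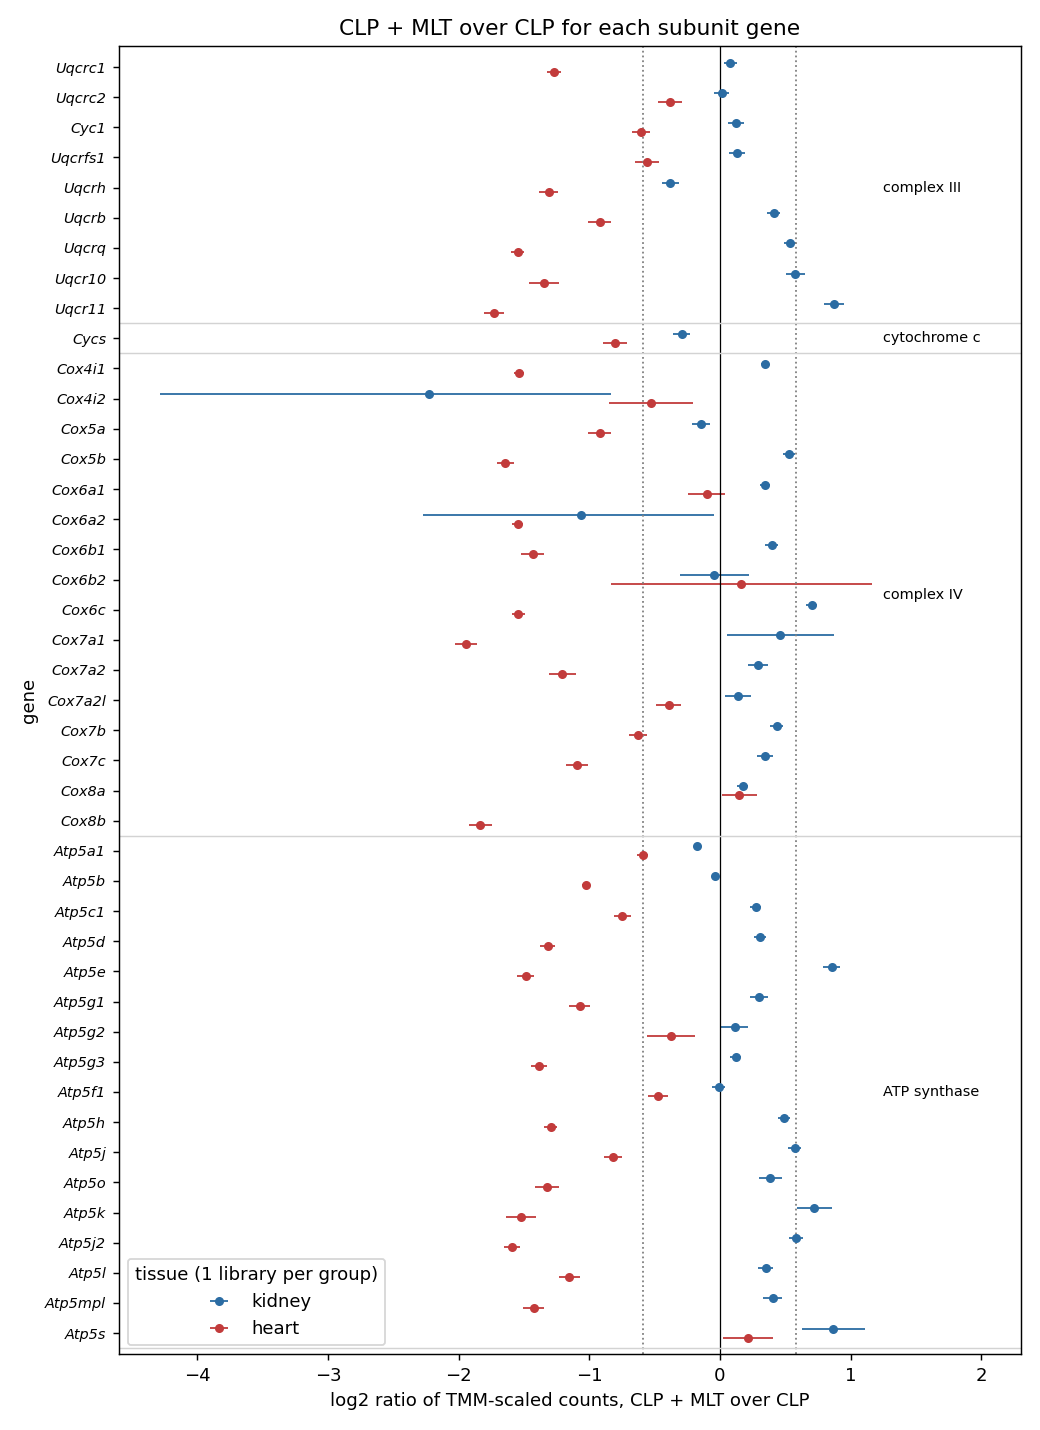
Log2 ratio of TMM-scaled counts (CLP + MLT over CLP) for each subunit gene past the filter, kidney in blue and heart in red, 1 library per group; bars are 95% exact counting intervals, dotted lines mark 1.5-fold. The heart points lie to the left of 0 for 40 of 43 genes, with a median of -1.15, and the kidney points to the right for 33 of 42, with a median of 0.32.

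Complex III has a pair of large core proteins (Uqcrc1, Uqcrc2), catalytic subunits that carry the heme and the iron-sulfur cluster (Cyc1, Uqcrfs1) and small supernumerary subunits. All 9 genes were lower in the CLP + MLT heart, and 7 were called. The supernumerary genes had a median log2 ratio of -1.35, against -0.83 for the core and -0.58 for the catalytic genes. Uqcr11, a supernumerary subunit (chromosome 10 from 80402997 to 80406830, minus strand), had 2744 counts in the CLP kidney, 3154 in the CLP + MLT kidney, 6299 in the CLP heart and 1890 in the CLP + MLT heart. Its log2 ratio was 0.87 (0.80 to 0.95) in kidney, the highest of all members there, and -1.73 (-1.80 to -1.65) in heart. Per length its level was highest in the CLP heart, at 1053 TPM (counts per length of exon, scaled to the library), against 384, 528 and 351 TPM in the CLP kidney, the CLP + MLT kidney and the CLP + MLT heart.

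Uqcrh, the hinge protein that lies between cytochrome c1 and cytochrome c, had 6525, 3150, 5308 and 2124 counts in the CLP kidney, CLP + MLT kidney, CLP heart and CLP + MLT heart. It was lower in both CLP + MLT libraries, with log2 ratios of -0.38 (-0.44 to -0.32) and -1.31 (-1.38 to -1.24), and only the second passed 1.5-fold. Cyc1, cytochrome c1, had 5674, 3878, 4454 and 2905 counts, log2 ratios of 0.12 (0.06 to 0.18) in kidney and -0.61 (-0.67 to -0.54) in heart. Uqcrc2 had 6534, 4143, 2076 and 1582 counts and was among the members that differed least in heart, with -0.38 (-0.48 to -0.29) there and 0.01 (-0.04 to 0.07) in kidney. Its core partner Uqcrc1 stood at -1.27 (-1.33 to -1.22) in heart, from 9581 to 3938 counts, so that the genes for the core proteins differed by unequal amounts. Uqcrfs1, the Rieske protein, was at -0.56 (-0.65 to -0.47) in heart and was not called.

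Cycs, the somatic cytochrome c, had 6053 counts in the CLP kidney, 3100 in the CLP + MLT kidney, 2767 in the CLP heart and 1577 in the CLP + MLT heart. It was lower in the CLP + MLT library of both tissues. The log2 ratio was -0.29 (-0.36 to -0.23) in kidney, under the 1.5-fold limit, and -0.80 (-0.89 to -0.71) in heart, beyond it.

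Complex IV surrounds its catalytic core with small nuclear subunits. Those with a single gene in these lists (Cox5a, Cox5b, Cox6c, Cox7c) were all called lower in heart, with a median log2 ratio of -1.32, and 3 of 4 were higher in kidney. Cox5b, a subunit of the matrix side (chromosome 1 from 36691449 to 36693681, plus strand), had 8530, 7720, 8103 and 2580 counts in the CLP kidney, CLP + MLT kidney, CLP heart and CLP + MLT heart. Its log2 ratio was 0.53 (0.48 to 0.57) in kidney and -1.64 (-1.71 to -1.58) in heart. Cox6c (chromosome 15 from 35925886 to 35938246, minus strand) had 9852, 10059, 12796 and 4364 counts, and ratios of 0.70 (0.66 to 0.74) and -1.54 (-1.59 to -1.49).

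Cox5a, also on the matrix side, had 5000, 2840, 3155 and 1656 counts. Its log2 ratios were -0.14 (-0.21 to -0.08) in kidney and -0.92 (-1.01 to -0.83) in heart, both lower. Cox7a2l, a gene linked to supercomplexes of complexes III and IV, differed less than most members. It was at 0.14 (0.04 to 0.23) in kidney and -0.39 (-0.49 to -0.30) in heart, and was called in neither.

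The muscle isoforms of complex IV were the members most restricted to heart, and in heart they were lower in the CLP + MLT library while 2 of their 3 widespread partners were not called. Cox6a2 (chromosome 7 from 128205435 to 128206387, minus strand) had 34 and 10 counts in the CLP and CLP + MLT kidneys and 18266 and 6203 in the hearts, a log2 ratio of -1.55 (-1.59 to -1.51) in heart. Its partner Cox6a1 had 12094 and 9643 counts in the kidneys and 862 and 798 in the hearts, a ratio of -0.10 (-0.24 to 0.04) in heart and 0.35 (0.31 to 0.38) in kidney. The sequence before Cox6a1 is the window above with the NRF1 and ETS letters, and no window of Cox6a2 is shown.

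Cox8b (chromosome 7 from 140898945 to 140900446, minus strand) had 1 and 2 counts in the kidneys and 4840 and 1348 in the hearts, a heart ratio of -1.83 (-1.92 to -1.75). Cox8a had 11863 and 8405 counts in the kidneys and 838 and 923 in the hearts, with 0.15 (0.01 to 0.29) in heart and 0.17 (0.13 to 0.22) in kidney. Cox7a1 (chromosome 7 from 30184144 to 30186078, plus strand) had 112 and 97 counts in the kidneys and 5421 and 1399 in the hearts. Its heart ratio of -1.94 (-2.03 to -1.86), 3.85-fold lower, was the lowest of all members, and in kidney it was 0.46 (0.06 to 0.87). Cox7a2 had 3311, 2546, 2485 and 1069 counts, 0.29 (0.22 to 0.37) in kidney and -1.21 (-1.31 to -1.10) in heart, so that in this pair both genes were called lower in heart.

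The share of each isoform within its pair, in counts per kilobase of exon, needs no scaling between libraries. Cox6a2 made up 95.6% (95.3 to 95.9, exact Clopper-Pearson 95% interval) of its pair in the CLP heart and 88.9% (88.2 to 89.6) in the CLP + MLT heart. Cox8b made up 90.9% (90.2 to 91.5) and 71.5% (69.8 to 73.2). Cox7a1 made up 79.4% (78.6 to 80.2) and 69.8% (68.1 to 71.5). The ratio of isoform to partner thus differed between the hearts by -1.45 (-1.59 to -1.30) on the log2 scale for Cox6a2, by -1.98 (-2.15 to -1.82) for Cox8b and by -0.74 (-0.87 to -0.60) for Cox7a1, beyond counting error in each. In the kidneys the shares were 0.289% and 0.107% for Cox6a2, 0.0145% and 0.0409% for Cox8b, and 5.63% and 6.30% for Cox7a1. Cox7a1 in kidney stood at 1.12% of its heart level in CLP and 5.70% in CLP + MLT, Cox6a2 at 0.101% and 0.133% and Cox8b at 0.0112% and 0.122%, while the median cardiomyocyte marker stood at 0.0344% and 0.0917%.

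**Figure D2:**
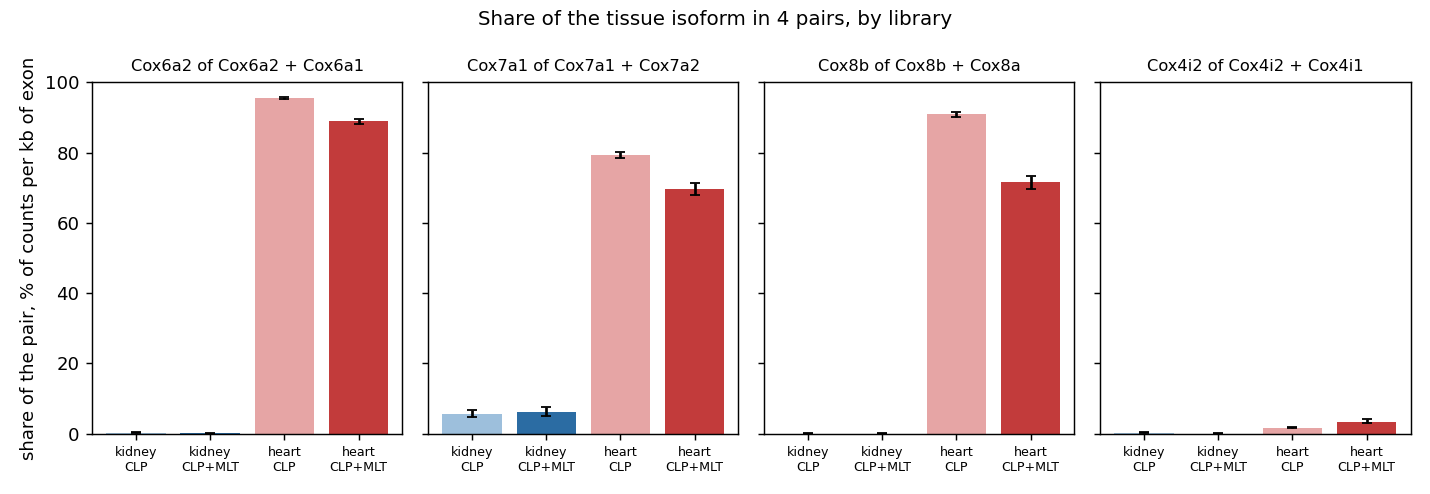
Share of the tissue isoform in its pair with the widespread partner, in percent of counts per kilobase of exon, for each of the 4 libraries; bars start at 0 and error bars are 95% exact counting intervals. In the hearts Cox6a2 held 95.6% and 88.9%, Cox7a1 79.4% and 69.8% and Cox8b 90.9% and 71.5% (CLP, then CLP + MLT), while Cox4i2 stayed at 3.47% or less in all libraries.

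Cox4i2, the isoform of Cox4i1 known from oxygen-sensing cells and lung, had 32 counts in the CLP kidney and 4 in the CLP + MLT kidney, a log2 ratio of -2.22 (-4.29 to -0.83), the lowest value in kidney and one that rests on few reads. In the hearts it had 203 and 140 counts, -0.52 (-0.85 to -0.21). It is found in pericytes and smooth muscle, and the 13 markers of those cells had a median of -0.12 in kidney, with 1 called higher and 1 lower, and the part of those cells was not tested. Cox4i1, the main form, had 23305, 18537, 22399 and 7667 counts in the CLP kidney, CLP + MLT kidney, CLP heart and CLP + MLT heart, 0.34 (0.31 to 0.37) in kidney and -1.54 (-1.57 to -1.50) in heart. The share of Cox4i2 in the pair was 1.75% (1.52 to 2.01) in the CLP heart and 3.47% (2.93 to 4.07) in the CLP + MLT heart.

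Cox6b2, known as the testis form, had 320 and 195 counts in the kidneys and 18 and 20 in the hearts, or 2.97% and 2.21% of its pair in kidney and 0.280% and 0.841% in heart. All 7 testis markers were at 0 in the kidneys. Its log2 ratios were -0.04 (-0.31 to 0.22) in kidney and 0.16 (-0.83 to 1.17) in heart, not distinguishable from 0 at this depth. Cox6b1 had 6671, 5508, 4095 and 1506 counts, 0.40 (0.34 to 0.45) in kidney and -1.43 (-1.52 to -1.35) in heart. Cox7b2, another testis form, had 0, 0, 1 and 0 counts, and where it was 0 a count of 3 allows a share, per kilobase of exon, of up to 0.0937% of its pair in the CLP kidney, 0.110% in the CLP + MLT kidney and 0.250% in the CLP + MLT heart. Cox7b had 7164, 6075, 4169 and 2680 counts and a heart ratio of -0.63 (-0.70 to -0.56).

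The ATP synthase has a head of alpha and beta subunits (Atp5a1, Atp5b), a central stalk (Atp5c1, Atp5d, Atp5e), a ring of c subunits in the membrane, a peripheral stalk and small membrane subunits. In heart 14 of its 17 measured genes were called lower, and in kidney 3 were called higher. The median heart log2 ratio was -0.81 for the head, -1.32 for the central stalk, -1.07 for the c ring, -1.06 for the peripheral stalk, -1.47 for the membrane subunits and 0.22 for the 1 gene of factor B. In kidney the same groups stood at -0.10, 0.31, 0.12, 0.44, 0.49 and 0.87, with both head genes slightly below 0.

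Atp5a1, the alpha subunit, had 25274 counts in the CLP kidney, 14082 in the CLP + MLT kidney, 12444 in the CLP heart and 8201 in the CLP + MLT heart. Its log2 ratios were -0.17 (-0.20 to -0.14) in kidney and -0.59 (-0.63 to -0.55) in heart. Atp5b, the beta subunit, stood lower still in the CLP + MLT heart, from 30234 to 14767 counts (log2 ratio -1.02). Atp5e, the epsilon subunit of the central stalk (chromosome 2 from 174461072 to 174464105, minus strand), had 3474, 3945, 7912 and 2804 counts, with 0.86 (0.79 to 0.92) in kidney and -1.49 (-1.55 to -1.42) in heart.

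Subunit c is the same mature protein from 3 genes that differ in their import sequence. Atp5g1 had 4294, 3314, 3682 and 1737 counts, with 0.30 (0.23 to 0.36) in kidney and -1.07 (-1.16 to -0.99) in heart. Atp5g2 had 1816, 1232, 569 and 436 counts, 0.11 (0.01 to 0.22) and -0.37 (-0.56 to -0.19). Atp5g3 had 10875, 7415, 8600 and 3270 counts, 0.12 (0.08 to 0.16) and -1.39 (-1.44 to -1.33). Per kilobase of exon, Atp5g3 made up 71.8% and 70.7% of the c subunit reads in the kidneys and 78.4% and 70.9% in the hearts. The Atp5g2 share was 15.6% and 15.3% in the kidneys, 6.75% in the CLP heart and 12.3% in the CLP + MLT heart.

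Among the membrane subunits, Atp5j2 (subunit f, chromosome 5 from 145183698 to 145192062, minus strand) had 6213, 5836, 8473 and 2792 counts, 0.58 (0.53 to 0.63) in kidney and -1.59 (-1.65 to -1.53) in heart. Atp5k (subunit e, which helps the enzyme form dimers, chromosome 5 from 108433244 to 108434448, minus strand) had 943, 977, 2440 and 844 counts, 0.72 (0.59 to 0.85) and -1.52 (-1.64 to -1.41). Atp5s, the factor B gene, went its own way: it had 275, 315, 418 and 482 counts and was higher in both CLP + MLT libraries, by 0.87 (0.63 to 1.11) in kidney and 0.22 (0.02 to 0.41) in heart. It was the least abundant ATP synthase gene with reads, at 12.1 to 28.1 TPM.

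Uqcr11, Cox6c, Atp5e and Atp5k were past 1.5-fold in opposite directions in the 2 tissues. In each of them the heart ratio lay 2.24 to 2.60 below the kidney ratio on the log2 scale. For 31 of the 42 members kept in both tissues, the kidney ratio was above 0 and the heart ratio below it. Of all genes kept, 11% were called higher in kidney and 12.6% lower in heart. Above 0 in kidney were 50.3% of all genes, and below 0 in heart 49.8%. The share of all genes that did both was not computed. The median gap of the members between the tissues was -1.36 (heart minus kidney). With 1 library in each group this gap could not be tested.

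Heart and kidney were then compared with both treatments together, 2 libraries against 2, by edgeR's quasi-likelihood test over 17260 genes with Benjamini-Hochberg adjustment. Of 43 members tested, 7 were higher in heart (background 29.3% of genes), 6 higher in kidney (30.7%) and 30 were not called, where 60% of all genes were called one way or the other. At an unadjusted p under 0.05 in the same edgeR test, 15 of the 43 members passed. The share of all genes at that limit was not computed, but it cannot lie below the 60% called after adjustment. Scaled by library size only, 5 members were higher in heart and 9 in kidney, and over all genes 3888 and 6570 instead of 5065 and 5299. The treatment difference counts as spread in this design, and the counts rest on single libraries: members higher in heart were 4 without the CLP kidney and 15 without the CLP + MLT heart, and those higher in kidney 3 without the CLP + MLT kidney and 16 without the CLP heart.

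The isoforms made up most of the calls. Cox8b was 2833-fold higher in heart (log2 11.47, SE 0.91, adjusted p = 3.3e-05 by edgeR), a fitted value that rests on 1 and 2 kidney counts. Its plain ratio was 8961 in CLP (counting interval 1608 to 354018) and 819 in CLP + MLT (226 to 6772). Cox6a2 was 877-fold higher in heart (log2 9.78, SE 0.73, adjusted p = 2.66e-05) and Cox7a1 48.2-fold (log2 5.59, SE 0.64, adjusted p = 0.000205, edgeR). Cox4i2 was 15.5-fold higher in heart (log2 3.96, SE 0.58, adjusted p = 0.000744, edgeR), again with few kidney counts.

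Higher in kidney were Cox6a1, 8.74-fold (log2 -3.13, SE 0.26, adjusted p = 4.47e-05, edgeR), Cox6b2, 8.72-fold (-3.12, SE 0.33, adjusted p = 0.000141) and Cox8a, 7.56-fold (-2.92, SE 0.25, adjusted p = 4.95e-05). Cox7a2, the partner of Cox7a1, was not called (-0.14, adjusted p = 0.752), so that the widespread form of this pair was not shown to differ. The other members higher in kidney were Atp5g2 (1.99-fold, adjusted p = 0.00337), Uqcrc2 (1.90-fold, adjusted p = 0.00934) and Uqcrfs1 (1.65-fold, adjusted p = 0.0378), all by edgeR. The other members higher in heart were Atp5k (2.47-fold, adjusted p = 0.0383), Atp5s (2.21-fold, adjusted p = 0.0114) and Cox7a2l (1.56-fold, adjusted p = 0.0333), all by edgeR. Leaving out a library leaves its tissue with a lone library, assumed to vary like the other tissue. In those fits Cox4i2, Cox6a1, Cox6a2, Cox6b2, Cox7a1, Cox8a and Cox8b were called each time, and Atp5g2, Atp5k, Atp5s, Cox7a2l, Uqcrc2 and Uqcrfs1 each lost the call without at least 1 library.

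The order of the tissues differed between the treatments for most members. In the CLP libraries 32 of 43 members were higher in heart, with a median log2 ratio of heart over kidney of 0.55, and in the CLP + MLT libraries 36 of 43 were higher in kidney, with a median of -0.69. The medians of all 17260 genes were -0.07 and -0.04, with 48.3% and 49.0% of them higher in heart. For 25 members heart was above kidney in CLP and below it in CLP + MLT, and for 0 members the reverse, with 6 of the 25 past 1.5-fold in both directions. Atp5e, for example, was at 2.08 in CLP and -0.21 in CLP + MLT, and Cox4i1 at 0.83 and -0.99. With 1 library per point these values have no test. The share of all genes that turned over was not computed. The same 4 libraries gave the gap between the tissues above, so the turnover is not a separate observation.

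**Figure D3:**
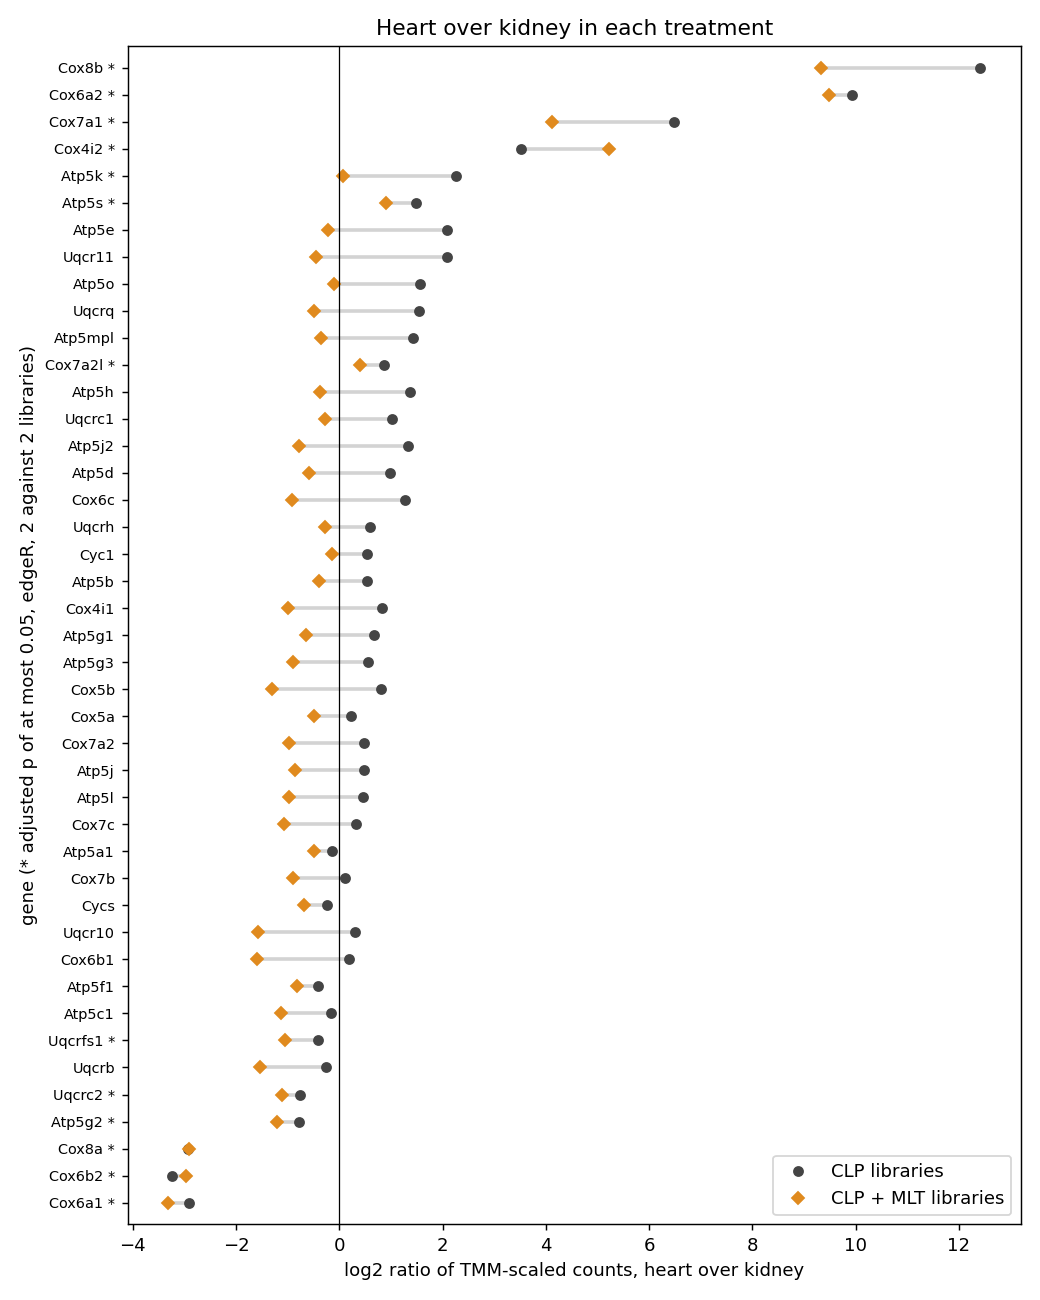
Log2 ratio of TMM-scaled counts, heart over kidney, for the 43 subunit genes tested, in the CLP libraries (grey circles) and the CLP + MLT libraries (orange diamonds), with a star where the edgeR test over both treatments was called. The circles lie right of 0 for 32 genes and the diamonds left of 0 for 36, while Cox8b, Cox6a2, Cox7a1 and Cox4i2 stay far to the right in both.

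Per length, these were among the most abundant messages of both organs. The median member stood at 231 TPM in the CLP kidney, 214 in the CLP + MLT kidney, 292 in the CLP heart and 162 in the CLP + MLT heart. The sum over all members was 1.64%, 1.52%, 1.95% and 0.866% of all TPM, highest in the CLP heart and lowest in the CLP + MLT heart. In kidney, median and sum were thus lower in CLP + MLT by TPM, while the median log2 ratio of TMM-scaled counts was 0.32. TPM is a share of the whole library, in which mitochondrially encoded genes held 14.8% of the CLP and 24.2% of the CLP + MLT kidney reads. Cox8a (1719 TPM) and Cox6a1 (1545 TPM) led in the CLP kidney, and Cox6a2 (2878 TPM), Cox4i1 (1548 TPM) and Cox8b (1440 TPM) in the CLP heart. In the CLP + MLT heart Cox6a2 (1085 TPM) and Cox4i1 (588 TPM) still led. Of the 100 most abundant genes, 11 were members in the CLP heart and 5 in the CLP + MLT heart.

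The mitochondrially encoded partners had a higher median ratio than the nuclear members in both tissues. The 6 of them (mt-Cytb, mt-Co1, mt-Co2, mt-Co3, mt-Atp6, mt-Atp8) were all called higher in the CLP + MLT kidney, with a median log2 ratio of 0.93, and in heart their median was -0.06, with mt-Atp8 called higher (1.21) and mt-Atp6 lower (-0.64). mt-Co1, the catalytic subunit of complex IV, had 939502 and 1119224 counts in the kidneys and 1938186 and 2224695 in the hearts, 0.92 in kidney and 0.21 in heart. Nuclear copies of mitochondrial DNA can share these reads. Beside them, the nuclear Cox4i1 ratio in heart was -1.54.

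The nuclear complex I genes, which lie upstream in the same chain, stood like the members: median 0.34 in kidney, with 9 of 36 called higher and 0 lower, and -1.29 in heart, with 30 of 36 called lower and 0 higher. Of the 4 complex II genes only Sdhb, its iron-sulfur subunit, was called in heart (-1.36), and Sdha, Sdhc and Sdhd were between -0.10 and -0.03. Complex II genes had medians of -0.07 in kidney and -0.10 in heart. Slc25a4, the ADP/ATP carrier of heart and muscle, was at -1.49 in heart, from 38358 to 13561 counts, while the 5 other carriers and pores past the filter were not called. The list of all 6 stood at -0.13.

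Genes that help build the complexes were also measured. Complex IV assembly genes had medians of -0.06 in kidney and -0.08 in heart, with 4 of 23 called lower in heart (among them Coa3, -1.01) and Coa4 called higher (0.91). Complex III assembly genes were at 0.44 and -0.53, with 3 of 6 called higher in kidney and 3 of 6 lower in heart, including Uqcc2 (-1.32 in heart), and ATP synthase assembly genes at 0.13 and -0.17. Of 14 regulators of respiratory chain genes, 0 were called in kidney and 3 in heart, all higher: Ppara (1.34, from 30 to 76 counts), Ppargc1b (1.11, from 56 to 121 counts) and Esrra (0.60, from 2538 to 3826 counts). Nrf1 (0.01), Gabpa (0.08), Ppargc1a (0.09) and Tfam (0.07) were not called in heart. Genes related to supercomplexes and hypoxia had medians of -0.05 and -0.52, with Ndufa4, an associated subunit of complex IV, at -1.51 in heart. Cytosolic ribosomal proteins, other short and abundant messages, were at 0.24 in kidney and -0.33 in heart, with 9 of 79 called lower there.

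**Figure D4:**
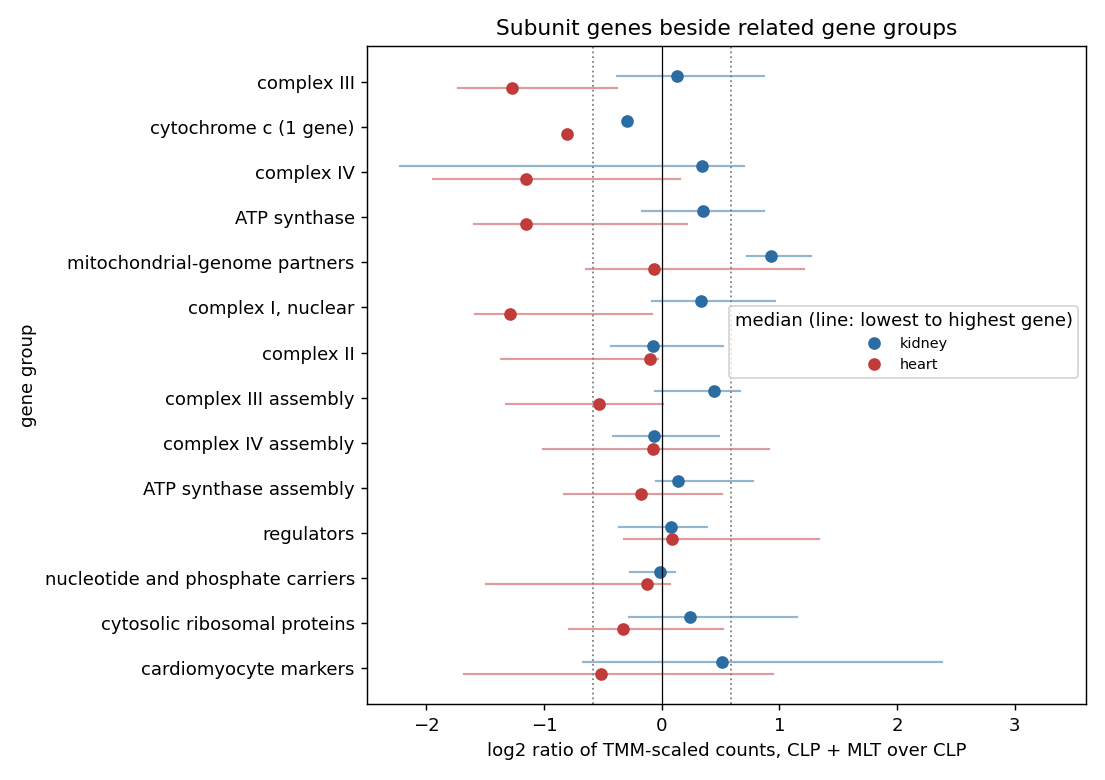
Median log2 ratio (CLP + MLT over CLP, points) and range from the lowest to the highest gene (lines) of the subunit genes by complex and of related gene groups, kidney in blue and heart in red; dotted lines mark 1.5-fold. Nuclear complex III, IV, ATP synthase and complex I genes lie at -1.15 to -1.29 in heart, while mitochondrial-genome partners, complex II, complex IV assembly and regulators have heart medians between -0.10 and 0.08.

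Markers of other cells also moved in the hearts. The cardiomyocyte list had a median log2 ratio of -0.51 there, with 7 of 17 called lower and 1 higher, from Tnnc1 (-1.68) and Mb (-1.63) to Myh7 (0.94), and its summed level was 55455 CPM in the CLP heart and 37586 CPM in the CLP + MLT heart. Scaled so that this list stood at 0, the members' heart median was -0.64 and that of all genes 0.51, with 22 members called lower and 3 higher. The distance between these medians, -1.15, is the same before and after by construction, because such a scaling shifts every gene alike. Atp5f1, Cox7a2l, Uqcrc2, Cox6a1 and Atp5g2, not called before, then lay above 0. Proximal tubule markers were higher in the CLP + MLT heart (median 1.02, 11 of 15 called higher and 1 lower). Their summed level was 913 and 1555 CPM in the hearts and 25760 and 38577 CPM in the kidneys. Kap, the most abundant of them, had 448683 and 439585 counts in the kidneys and 4352 and 9602 in the hearts, and the part of kidney RNA in the heart reads of Cox6a1 and Cox8a was not tested. Collecting duct markers had a heart median of 1.99, with 6 of 6 called higher, on 5.20 and 21.3 CPM. Thick limb and distal tubule markers were at 0.41, podocyte markers at -0.03, fibroblast markers at -0.32, endothelial markers at 0.14, macrophage and neutrophil markers at 0.11, pericyte and smooth muscle markers at -0.17 and erythroid markers at -0.03 in heart. White fat markers were at -0.36 (3 past the filter) and skeletal muscle markers at -1.26. The latter ran from -3.30 (Tnni2, 64 and 6 counts) to 5.36 (Pvalb, 0 and 20 counts), ends that rest on few reads. Pvalb also stands in the thick limb and distal tubule list, and Ckm in the cardiomyocyte list. Brown fat also expresses Cox7a1, Cox8b and Cidea. The brown fat list had a heart median of 0.09, with Ppara (1.34) and Cpt1b (0.67) called higher and Cidea lower. Cidea went from 797 to 222 counts in the hearts, and the brown fat genes Ucp1, Zic1, Elovl3 and Otop1 had 0 to 3 counts in every library. The part of these cells in the members' ratios was not tested.

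In the kidneys the cardiomyocyte list summed to 248 and 237 CPM. Proximal tubule markers had a median of 0.58 there, from -3.31 (Slc5a12) to 2.24 (Slc7a13), with 7 called higher and 4 lower. Of the other kidney cells, thick limb and distal tubule markers were at 0.14, collecting duct at 0.37, podocyte at -0.38, endothelial at -0.32, fibroblast at -0.07, macrophage and neutrophil at 0.75, erythroid at 0.28 and white fat at -0.59. The median of the proximal tubule list, whose cells carry many mitochondria, thus stood above the members' median of 0.32. Its genes went both ways, and the part of these cells in the members' value was not tested.

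Short messages differed somewhat between the CLP + MLT and CLP libraries in both tissues. Over all genes kept, the Spearman correlation of the log2 ratio with log2 exon length was 0.14 in heart and -0.0022 in kidney. Other protein-coding genes with under 700 bases of exon had a median of -0.32 in heart (111 genes) and 0.36 in kidney (120 genes), and the members of that length had -1.55 (7 genes) and 0.52 (6 genes). Among genes of at least 1200 bases the medians were 0.01 in heart and -0.0013 in kidney for other genes, and -1.07 and 0.30 for the 29 members. With the trend on length removed over all genes, the members' medians were -1.10 in heart and 0.31 in kidney.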

How the data were processed

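RNA-seq data were analysed for 4 libraries, 1 each of CLP kidney, CLP + MLT kidney, CLP heart and CLP + MLT heart, grouped by their labels. Reads had been cleaned by the authors (trim-galore) and mapped to mm10 by HISAT2 (2.1.0 in the submitters' processing notes, which also name HTSeq) before the authors deposited raw counts per gene. The version of the counting, its strand setting and gene models were not given in the sources used here. The totals that name no gene (65.5% to 72.8% of each file's sum) were left out. Depth was 15883057 to 22927905 counts.

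The deposited counts were scaled by TMM, tissue by tissue (edgeR 4.0.16 under R 4.3.3, factors 1.07 and 0.935 for kidney, 0.981 and 1.02 for heart). Log2 ratios (CLP + MLT to CLP) were taken after adding 0.5 counts, where the mean was 10 counts or more, and a gene was called at 1.5-fold. The paper states edgeR with a p-value limit, but 1 library per group allows no estimate of dispersion, so no p-value is given for these ratios. Intervals are 95% exact Clopper-Pearson intervals and cover counting error only, since PCR copies are not independent molecules; a list's interval is the median of its genes' bounds. Heart and kidney were compared with glmQLFit and glmQLFTest (design: tissue, 2 libraries each, filterByExpr). Whether libraries are separate mice is not stated, so these p-values measure only the spread between these libraries. The SE is the log2 fold divided by the root of F. TPM used the union of exons of GENCODE M21 (GRCm38), which gave names for 55141 identifiers. Summed marker levels are CPM scaled over all 4 libraries.

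The members and gene lists were chosen with earlier results of these data known. Lists were written from general knowledge. Named with values were the isoform pairs, Cyc1, Cycs and, in each tissue, the 5 largest rises and falls among members with a mean of at least 100 counts. Genes past 1.5-fold in opposite directions were also named; further genes were picked with their values known. Alternatives were other scalings, filters, prior counts and fold limits, assumed variation, wider symbols, DESeq2 1.42.0, treatment as a term and leaving out libraries. The fit between tissues was also run on simulated counts that hold no treatment difference, unlike the real libraries, so nothing is concluded from it about the spread here. Other values were computed in Python 3.11.15.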

Additional observations from a re-analysis of the deposited data

Results flagged for a closer look

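The log2 ratio of CLP + MLT to CLP had opposite signs in heart and kidney for several genes and groups. How many of all genes did so was not counted. The difference between the tissues was not tested, because each group was 1 library. The log2 ratios differed, heart minus kidney, by -2.60 for Uqcr11, -2.34 for Atp5e, -2.24 for Cox6c and -2.24 for Atp5k. The median gap over all members was -1.36. By complex it was -1.33 for complex III, -1.06 for complex IV and -1.50 for the ATP synthase.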

How the results depend on the processing

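No called ratio of a named member changed direction under the alternatives run. For CLP + MLT over CLP, another scaling shifts all ratios of a tissue by nearly the same amount. That amount was below the 1.5-fold limit in each scaling run, so scaling could not turn a called ratio. Other filters, fold limits, p limits and assumed variations leave the ratio itself as it was. Scaling by library size only moved the median of all kidney genes to -0.19 and that of the members from 0.32 to 0.13, and turned 8 members below 0, none of them called, among them Cyc1 (-0.07), Uqcrc1 (-0.12) and Uqcrc2 (-0.18), which left 25 of 42 above 0. In kidney, members called higher were 5, and 3 with library size only, 8 with the upper quartile and 0 with a fold of at least 2 or an assumed variation of 0.2 or 0.4. Members called lower were 2, and 1 with a binomial p on the reads or a variation of 0.2, and 0 with a minimum mean of 50 counts or a variation of 0.4. In heart, members called lower were 33, and 0 with a variation of 0.4. Scaled to the cardiomyocyte list, an alternative chosen after seeing the data, the heart median was -0.64, that of all genes 0.51, and 3 members were called higher and 22 lower. All kidney genes called higher were 1863, and 1149 with library size only, 4711 with no filter, 1002 with a mean of at least 50, 699 at 2-fold, 289 and 23 with variations of 0.2 and 0.4. Those called lower were 1971, and 3172, 5984, 1012, 830, 330 and 67 in the same order, and 1251 with the binomial p. All heart genes called higher were 1726, and 5083 with no filter, 727 with a mean of at least 50, 730 at 2-fold, 1089 with the binomial p, 292 and 42 with variations of 0.2 and 0.4, and 6711 scaled to the cardiomyocyte list. Those called lower were 1997, and 5378 with no filter, 1143 with a mean of at least 50, 829 at 2-fold, 370 and 21 with the variations, and 668 scaled to that list. Between heart and kidney, members higher in heart were 7, and 11 with no filter. Leaving out 1 library gave 4 (without the CLP kidney) to 15 (without the CLP + MLT heart) members higher in heart and 3 (without the CLP + MLT kidney) to 16 (without the CLP heart) higher in kidney. Over all genes leaving out 1 library gave 3417 to 4640 higher in heart and 3254 to 4976 higher in kidney, against 5065 and 5299. With the longest transcript as length, the heart shares (CLP, then CLP + MLT) were 0.937% and 1.87% for Cox4i2, 95.1% and 87.6% for Cox6a2, 74.8% and 64.0% for Cox7a1, and 89.8% and 69.1% for Cox8b. The causes of these moves were not tested beyond what each setting changes by construction. No paired analysis was possible because each group was 1 library and no label says that libraries were paired. For 29 named members of the 43 tested between the tissues, over 10 alternatives, 264 values stayed on their side of the threshold, 16 lost the call and 10 gained one. Treatment as a term, which leaves 1 residual degree of freedom, gave 7 members higher in heart and 7 in kidney. At this depth a member under about 3 counts, such as Cox7b2, has no usable ratio.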
